A study of Homo sapiens with 6 samples.

Results

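The oxidative phosphorylation system of F36P cells was described through the messenger RNAs of its nuclear-encoded subunits. Genes were chosen by symbol alone: every row beginning with NDUF, UQCR, COX4 to COX8 or ATP5, and the rows SDHA, SDHB, SDHC and SDHD. This gave 112 of the 16315 genes in the table. They comprise 78 subunits of complexes I to V, 8 complex I assembly factors, the supercomplex factor COX7A2L, the ATP synthase inhibitor ATP5IF1, 21 pseudogenes or retrogene copies and 3 antisense or divergent transcripts. Of the 112, 103 passed the filter on low values, a mean of at least 1 CPM (a gene's reads scaled to the size of the library) over the libraries. The other 9 are all copies. The protein-coding isoforms COX4I2, COX6A2, COX7A1, COX7B2 and COX8C are not analysed here.

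F36P is an established human leukaemia line of erythroid character. Its cells received a plasmid with a guide that targets the class IIa histone deacetylase HDAC7 (sgHDAC7) or with a non-targeting guide (sgNT), and were kept in 1 µg/ml puromycin for 4 days before bulk messenger RNA sequencing. The labels give the sgHDAC7 samples the genotype HDAC7 knockout and name 3 biological replicates in each group. Nothing in the labels says whether the sgHDAC7 cells were clonal, so each library was read as a selected population, and p-values measure the spread between these libraries.

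Complexes I and II pass electrons from NADH and succinate to ubiquinone, complex III passes them on to cytochrome c, and complex IV hands them to oxygen. Complexes I, III and IV pump protons across the inner mitochondrial membrane, and complex V, the ATP synthase, uses the returning protons to make ATP. All but complex II combine nuclear-encoded subunits with a few made from mitochondrial DNA, and erythroid cells lose this system with their mitochondria late in maturation.

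Library totals ran from 10039693 to 12521195 counts, at which 3 counts equal 0.24 to 0.299 CPM (counting error only). HDAC7 itself had 194, 239 and 246 CPM in sgHDAC7 replicates 1 to 3 and 449.9, 460.4 and 462 CPM in the sgNT replicates, a level of 49.5% of the control, with no overlap (edgeR log2 fold change -1.02 ± 0.09 (SE), adjusted p = 0.00139). All 11 erythroid markers on the list were detected, while 3 of 10 monocyte and granulocyte markers and 5 of 10 lymphoid markers are in the table. Also in the table are 5 megakaryocyte markers, with means of up to 482 CPM, and 5 mast cell markers, with means of up to 501 CPM. Of the former edgeR called TUBB1 higher (20%, against 1.16% of all genes), a call that depends on the libraries kept. Of the mast cell markers it called 0 on group alone, and in replicates 2 and 3 alone 1 higher (20%, against 9.79%) and 2 lower (40%, against 10.9%). The median log2 ratio of the mast cell markers was 0.47 in replicate 1 and -0.58 in replicates 2 and 3. Summed over a library, the erythroid markers made 17697 to 24931 CPM under sgHDAC7 and 12303 to 18551 CPM under sgNT, lowest in replicate 1 of each group. These ranges overlap, and of the 11 markers TFRC alone had groups that did not overlap (9.09%, against 25.1% of all genes). Their log2 fold changes were all above 0, from 0.03 for GATA1 to 0.61 for HBA2, with a median of 0.20. On group alone edgeR called 0 of the 11 (3, or 27.3%, at an unadjusted p under 0.05, against 19.2% of all genes). With a term for replicate 1, and again in replicates 2 and 3 alone, it called 6 higher (54.5%, against 5.78% and 9.79% of all genes): EPOR, TFRC, HBG2, HBA1, HBA2 and ALAS2. The 3 monocyte and granulocyte markers summed to between 107 and 116 CPM in sgHDAC7 and to between 144 and 147 CPM in sgNT, without overlap. Of the 2 that were tested, ITGAM, an integrin of myeloid cells, was called lower (50%, against 1.7% of all genes). Its edgeR adjusted p was 0.0305, and 0.0619 to 0.168 without replicate 2 or 3 of either group. LYZ, at -0.15 on the log2 scale, was not called on group alone. In replicates 2 and 3 alone edgeR called ITGAM and LYZ lower (100%, against 10.9% of all genes). The part of these markers in the values given here was not tested. In bulk RNA, fewer cells of a type and less RNA per cell cannot be told apart.

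The nuclear-encoded respiratory chain was close to level between the guides, and a single gene of it passed the test. NDUFAF3, a complex I assembly factor, rose 1.37-fold, and none of the 78 subunits was called (9 stood at an unadjusted p under 0.05, against 19.2% of all genes). This is 1 of 103 members tested (0.971%), against 2.86% of all 13841 genes tested (1.16% higher and 1.7% lower). The median log2 fold change was -0.02 over the 103 members and over the 78 subunits, and -0.00 (-0.0016) over all genes tested. Of the subunits, 31 lay above 0 and 47 below, from -0.40 for NDUFC2 to 0.34 for NDUFV3.

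The level reading was more precise for these genes than over all genes tested. The 95% confidence interval of the fold change lay within 1.5-fold in either direction for 76 of the 78 subunits (97.4%), against 62.7% of all genes tested. The median standard error was 0.08 on the log2 scale for the subunits and 0.13 for all genes. The subunits were also more abundant, with a median of 83 CPM against 28.2 CPM over all genes tested.

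**Figure D1:**
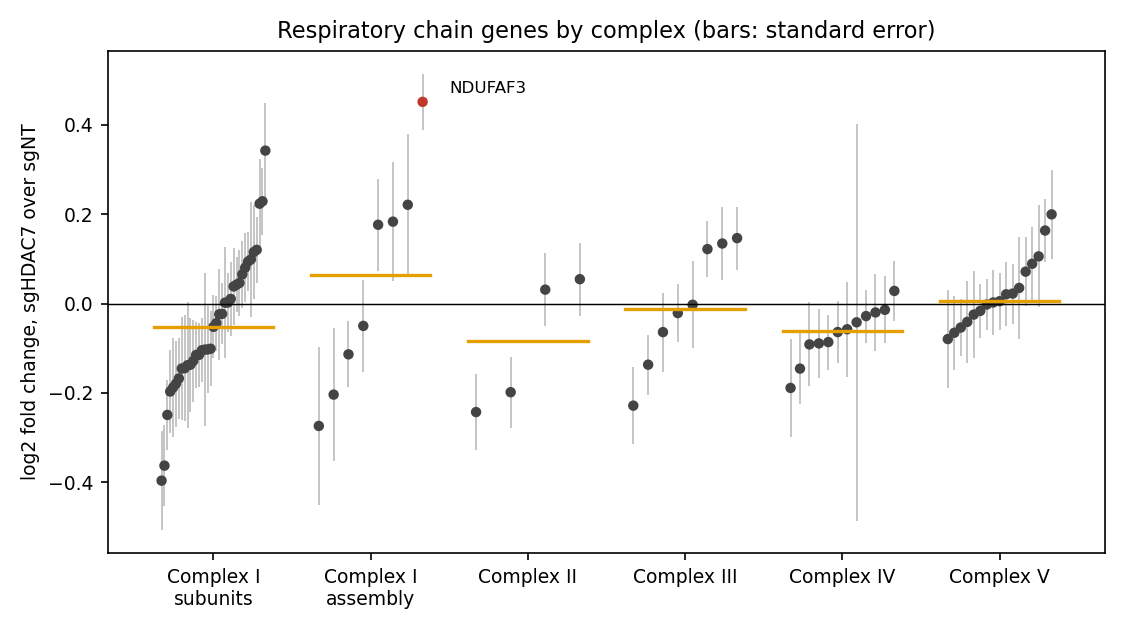
Log2 fold change of each tested subunit and complex I assembly factor, sgHDAC7 over sgNT, grouped on the horizontal axis by complex and sorted within it. Bars are standard errors, orange lines are group medians, and the point in red is NDUFAF3 (0.45), the gene called by edgeR. The long bar in complex IV is COX6B2, the least abundant subunit.

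By weaker readings the members also stayed at or under the background. At an unadjusted p under 0.05 stood 10 members (9.71%), against 19.2% of all genes. The 3 libraries of sgHDAC7 lay wholly above or wholly below the 3 of sgNT for 21 members (20.4%), against 25.1% of all genes tested, with 10 higher (13% of all genes were) and 11 lower (12.2% of all genes). DESeq2 called 2 members, NDUFAF3 and NDUFA1, against 5.19% of all genes, and limma called 1, against 2.6%.

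Replicate 1 of both groups was also set apart by a term of its own, and left out. This was chosen because earlier results of these same data had replicate 1 of both groups apart. Calls made this way are therefore not independent support for those on group alone. With a term for replicate 1 in the edgeR fit, 12.6% of all genes were called and 6 members (5.83%). NDUFAF3, NDUFS8 and NDUFV3 were higher (5.78% of all genes were), and NDUFA1, NDUFC2 and NDUFB3 were lower (6.81% of all genes). All 6 belong to complex I or its assembly. They are 5 of its 37 subunits and 1 of its 8 assembly factors, shares close to the 12.6% of all genes. In replicates 2 and 3 alone, 20.7% of all genes and 9 members (8.74%) were called: NDUFAF3, NDUFV3 and UQCRB higher (9.79% of all genes were), and NDUFA1, NDUFC2, NDUFB3, UQCRH, COX7A2L and ATP5IF1 lower (10.9%).

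NDUFAF3 (3:49020459-49023495, plus strand, GRCh38) acts early in complex I assembly, where it works with NDUFAF4 on the matrix arm and its junction with the membrane arm. It had 104, 100.2 and 105 CPM in sgHDAC7 replicates 1 to 3, and 74.5, 76 and 75.2 CPM in the sgNT replicates. The groups did not overlap, and the spread within each was small beside the gap, at 103 ± 2.33 CPM against 75.2 ± 0.72 CPM (SD, n = 3). The edgeR log2 fold change was 0.45 ± 0.06 (SE, 95% interval 0.31 to 0.59, adjusted p = 0.0106). Taken by replicate, the log2 ratio was 0.47 for replicate 1 and 0.44 for the means of replicates 2 and 3, and the adjusted p was 0.000576 with the replicate 1 term. The call depends on which library is left out: the edgeR adjusted p was 0.0737 without sgHDAC7 replicate 2, 0.0878 without sgHDAC7 replicate 3, 0.0615 without sgNT replicate 2 and 0.0665 without sgNT replicate 3. It was 0.0286 without sgHDAC7 replicate 1, 0.00166 without sgNT replicate 1 and 1.67e-05 in replicates 2 and 3 alone.

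The locus is shared. DALRD3 lies on the opposite strand and covers 1835 of the 3037 bases of NDUFAF3, and whether counting used strand is not given in the sources used here, so reads in the shared stretch could go to either gene. NDUFAF3 took 1288, 1161 and 1293 counts in the sgHDAC7 libraries and 754, 845 and 791 in the sgNT libraries, against 191, 169 and 176 and then 126, 124 and 140 for DALRD3. DALRD3, named for its position, was not called (log2 fold change 0.26 ± 0.13, adjusted p = 0.307 by edgeR). Neither were the neighbours chosen after their values were seen, IMPDH2 at 0.06 and WDR6 at 0.10 on the log2 scale.

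The start regions of 3 members are shown for reference, since respiratory chain promoters are known for sites of NRF1, ETS-family factors (GABP), YY1 and ERR-alpha. The sequences are those of RefSeq for GRCh38.p14, from 250 bases before to 50 after an annotated start, 5′ to 3′ on the gene's strand. Capitals mark matches, on either strand, to GCGCATGCG (NRF1), CCGGAAG (ETS), AAGATGGCG (YY1) or TCAAGGTCA (ERR). In SDHD the NRF1 match is found on both strands, so its capitals overlap and run on. NDUFAF3 is shown because it was called; the window is the one of its 4 annotated starts that lies nearest the start codon (3:49021871-49022170, plus strand). NDUFA1 (X:119871582-119871881, plus strand) is the subunit with the smallest adjusted p, and SDHD (11:112086623-112086922, plus strand) holds 3 of the motifs and is the lowest subunit of complex II.
NDUFAF3: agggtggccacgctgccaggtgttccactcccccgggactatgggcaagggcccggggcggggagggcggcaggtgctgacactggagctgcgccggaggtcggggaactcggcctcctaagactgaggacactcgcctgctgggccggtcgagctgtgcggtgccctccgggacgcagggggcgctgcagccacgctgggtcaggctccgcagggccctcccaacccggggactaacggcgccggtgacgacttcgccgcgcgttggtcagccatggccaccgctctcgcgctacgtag
NDUFA1: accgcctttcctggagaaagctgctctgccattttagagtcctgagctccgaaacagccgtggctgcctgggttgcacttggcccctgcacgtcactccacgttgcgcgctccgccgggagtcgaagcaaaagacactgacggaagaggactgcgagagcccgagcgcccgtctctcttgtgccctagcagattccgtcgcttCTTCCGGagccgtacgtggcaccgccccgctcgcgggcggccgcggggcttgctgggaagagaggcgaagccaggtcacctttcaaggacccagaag
SDHD: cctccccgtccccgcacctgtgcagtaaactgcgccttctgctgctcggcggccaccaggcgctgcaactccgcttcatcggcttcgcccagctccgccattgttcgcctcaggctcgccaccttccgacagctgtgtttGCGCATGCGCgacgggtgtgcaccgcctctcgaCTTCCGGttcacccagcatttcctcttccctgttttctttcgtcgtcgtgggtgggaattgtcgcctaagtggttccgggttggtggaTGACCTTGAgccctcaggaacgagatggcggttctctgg

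None of the 4 NDUFAF3 windows holds any of these letters in this form. The NDUFA1 window holds the ETS motif, and the SDHD window holds those of NRF1, ETS and ERR. Among the 65 subunits with an entry in the promoter table, 34 (52.3%) hold at least 1 of the motifs, against 30.3% of the 9941 tested genes with an entry and 15.8% of all 27305 genes in that table. The ETS motif is found in 21 of the 65 (32.3%) against 23.5% of tested genes, and the YY1 motif in 9 (13.8%) against 4.92%. Within the chain the ETS motif is found for 5 of 32 complex I subunits (15.6%), 5 of 10 of complex IV (50%) and 6 of 13 of complex V (46.2%). The YY1 motif is found for 6 of 32 complex I subunits (18.8%). The NRF1 motif is found for 11 subunits (16.9% against 4.46%), 5 of them in complex I and 4 in complex V, and the ERR motif for SDHD alone (1.54% against 0.282%). These matches describe letters in a window and not binding.

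Complex I, the largest complex, splits into a catalytic core and accessory subunits. Over its 37 nuclear-encoded subunits the median log2 fold change was -0.05, and -0.10 over its 30 accessory ones. Of the 37, edgeR called 0 (5 at an unadjusted p under 0.05, against 19.2% of all genes). The core subunits carry the flavin, the iron-sulphur clusters and the ubiquinone site. NDUFS1, the largest core subunit and holder of several of the clusters, had 129, 146 and 152 CPM in sgHDAC7 and 137, 139 and 138 CPM in sgNT. Its log2 fold change was 0.05 ± 0.07 (SE), and the groups overlapped. NDUFS3 (-0.02), on the arm that leads to ubiquinone, NDUFV1 (0.04), the NADH-oxidising flavoprotein, and the iron-sulphur proteins NDUFV2 (-0.10) and NDUFS7 (-0.14) were likewise not called.

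NDUFS8, which binds a pair of iron-sulphur clusters near the ubiquinone site, was the highest core subunit. It had 93.2, 97.3 and 93.7 CPM in sgHDAC7 and 73.9, 83.6 and 84.9 CPM in sgNT. The groups did not overlap, and sgNT replicate 1 was the lowest library. Its log2 fold change was 0.23 ± 0.07 (edgeR adjusted p = 0.135, or 0.0312 once replicate 1 has a term). NDUFV3, an accessory subunit on the NADH-oxidising module, had 44.6, 49 and 42.9 CPM in sgHDAC7 and 31.1, 36.9 and 39.5 CPM in sgNT. Here too no sgHDAC7 library reached down into the controls and sgNT replicate 1 was lowest. The log2 difference was 0.34 ± 0.11 (edgeR adjusted p = 0.121, or 0.0269 once replicate 1 has a term).

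The lowest complex I subunits belong to the membrane arm. NDUFA1, a small accessory subunit needed for assembly, had 49.9, 44.9 and 55.7 CPM in sgHDAC7 and 63.4, 66.5 and 63.7 CPM in sgNT. The groups did not overlap and the sgHDAC7 libraries were the more spread. On the log2 scale it differed by -0.36 ± 0.09 (edgeR adjusted p = 0.0679, 0.0158 with the replicate 1 term), and DESeq2 called it at 0.0322. RNF113A overlaps NDUFA1, and its part in the NDUFA1 value was not tested. NDUFC2, an accessory membrane-arm subunit, had 35.4, 31.1 and 38.6 CPM in sgHDAC7 and 51.2, 45.5 and 41.7 CPM in sgNT. Its groups lay close but apart. The log2 fold change was -0.40 ± 0.11 (edgeR adjusted p = 0.0905, 0.0211 with the replicate 1 term), with -0.53 in replicate 1 and -0.33 in replicates 2 and 3, and a readthrough transcript, NDUFC2-KCTD14, overlaps it.

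NDUFB3, a membrane-arm accessory subunit chosen after its values were seen, had 40.9, 39.7 and 37.6 CPM in sgHDAC7 and 47.4, 46 and 47.1 CPM in sgNT. All sgHDAC7 libraries were lower, by a small and even margin. The fitted log2 fold change was -0.25 ± 0.08 (edgeR adjusted p = 0.123, 0.0499 with the replicate 1 term). FAM126B overlaps NDUFB3, and its part in the NDUFB3 value was not tested.

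**Figure D2:**
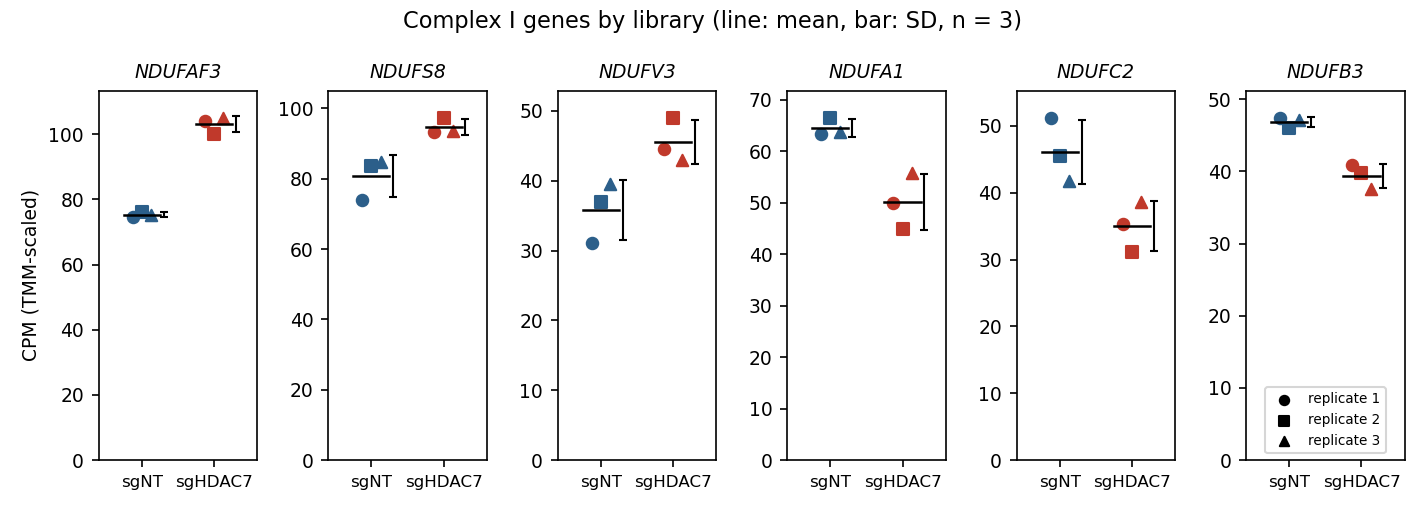
CPM of 6 complex I genes in each library, with sgNT in blue and sgHDAC7 in red; marker shape gives the replicate, lines are means and bars SD (n = 3), and each vertical axis starts at 0. The 6 genes are the members called with the replicate 1 term, and so were picked from these same values. In all 6 panels the groups do not overlap. Over all genes tested this held for 25.1%, and over the members tested for 20.4%. NDUFAF3, at 103 against 75.2 CPM, is the gene of these 6 called by edgeR on group alone.

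None of the other 7 complex I assembly factors was called by edgeR (0 at an unadjusted p under 0.05). The 8 factors had a median log2 fold change of 0.06, with 4 above and 4 below 0. NDUFAF4, which works together with NDUFAF3 and is likewise named here after its values were seen, had 30.3, 26 and 29.8 CPM in sgHDAC7 and 29.6, 24.7 and 21.5 CPM in sgNT. These overlapped, and the fitted difference was 0.18 ± 0.13 on the log2 scale (edgeR adjusted p = 0.498). NDUFAF2, a late-acting factor, was the lowest, at -0.27 ± 0.18. Of 14 complex I assembly factors outside the symbol rule, among them ACAD9, TIMMDC1 and NUBPL, 0 were called by edgeR, with a median of -0.01 (-0.0056). At an unadjusted p under 0.05 stood 1 of the 14 (7.14%, against 19.2% of all genes). With the replicate 1 term 0 were called. In replicates 2 and 3 alone TMEM126A was called higher (7.14%, against 9.79% of all genes).

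Complex II, succinate dehydrogenase, is the complex that also acts in the citric acid cycle and is wholly nuclear-encoded. Its 4 subunits split evenly by sign, and edgeR called 0 (2 at an unadjusted p under 0.05, against 19.2% of all genes). SDHA, the flavoprotein that oxidises succinate, had 167, 188 and 183 CPM in sgHDAC7 and 157, 184 and 185 CPM in sgNT. The groups overlapped, with replicate 1 lowest in both (log2 fold change 0.03 ± 0.08). SDHC, a membrane anchor, was at 0.05 ± 0.08.

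SDHB, the iron-sulphur subunit, had 73.3, 78.6 and 82.8 CPM in sgHDAC7 and 96.1, 84.3 and 88.9 CPM in sgNT. SDHD, the other membrane anchor, had 43.9, 40.9 and 42.8 CPM in sgHDAC7 and 54.6, 47.7 and 48.8 CPM in sgNT. In both genes all sgHDAC7 libraries were lower (as for 12.2% of all genes) and sgNT replicate 1 was the highest. The log2 fold changes were -0.20 ± 0.08 and -0.24 ± 0.08, and edgeR called neither (adjusted p = 0.208 and 0.157). In replicate 1 the log2 ratios were -0.39 and -0.31, and in replicates 2 and 3 they were -0.10 and -0.20. TIMM8B overlaps SDHD on the opposite strand, and its part in the SDHD value was not tested.

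Complex III passes electrons from ubiquinol to cytochrome c. The median over its 8 subunits was -0.01, and 0 were called by edgeR (1 at an unadjusted p under 0.05, against 19.2% of all genes). UQCRC1 and UQCRC2, the large core proteins, lay slightly higher without overlap: UQCRC2 had 118, 122 and 130.3 CPM in sgHDAC7 and 106, 112 and 117 CPM in sgNT. Their log2 fold changes were 0.12 ± 0.06 and 0.15 ± 0.07 (edgeR adjusted p = 0.328 and 0.296). UQCRFS1, the Rieske iron-sulphur protein, was at -0.02, and UQCRB, a ubiquinone-binding subunit, at 0.13.

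UQCRH, the acidic hinge protein that helps cytochrome c dock, was the lowest subunit of complex III. It had 224, 205 and 259.9 CPM in sgHDAC7 and 268, 274 and 266 CPM in sgNT. The sgHDAC7 libraries spread widely, and replicate 3 came close to the controls. Its log2 fold change was -0.23 ± 0.09 (edgeR adjusted p = 0.184). UQCR10, a small membrane subunit, had 81, 74.3 and 79.1 CPM in sgHDAC7 against 86, 86.2 and 85.6 CPM in sgNT (log2 fold change -0.14 ± 0.07, adjusted p = 0.306).

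Complex IV, cytochrome c oxidase, keeps its catalytic centres on mitochondrially encoded subunits, and its nuclear-encoded subunits surround them. Of 12 genes, 11 had a log2 fold change below 0 (8 to 11 with any 1 library left out), with a median of -0.06. Of the 12, edgeR called 0 (0 at an unadjusted p under 0.05, against 19.2% of all genes). Within replicate 1 the median was -0.13, and within replicates 2 and 3 it was -0.03. COX4I1, the regulatory subunit that binds ATP, had 287, 287 and 297 CPM in sgHDAC7 and 301, 284 and 304 CPM in sgNT. These overlapped (-0.03 ± 0.06), as did COX5A (0.03), COX5B (-0.02), COX6B1 (-0.01), COX7A2 (-0.06), COX7B (-0.09), COX8A (-0.09) and NDUFA4 (-0.06), a subunit first assigned to complex I. COX6C, a small membrane subunit, was the 1 of the 12 genes of complex IV without overlap, against 25.1% of all genes. It had 126, 129.6 and 135 CPM in sgHDAC7 against 138, 140 and 136 CPM in sgNT, a narrow gap (-0.09 ± 0.06, edgeR adjusted p = 0.486), and was named after its values were seen.

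COX6A1 and COX7C were the lowest of complex IV, at -0.19 ± 0.11 and -0.15 ± 0.08. COX6A1 had 40.6, 41 and 46.5 CPM in sgHDAC7 and 53.2, 41.7 and 51.2 CPM in sgNT, with overlap (edgeR adjusted p = 0.382). COX6B2, the testis isoform of COX6B1, was scarce and followed the replicate, not the guide. It had 1.13, 3.11 and 3.08 CPM in sgHDAC7 and 1.28, 3.15 and 3.04 CPM in sgNT. COX7A2L, which helps complexes III and IV form supercomplexes, had 63.9, 66 and 72 CPM in sgHDAC7 and 66.5, 79.4 and 85.7 CPM in sgNT. The groups overlapped in the replicate 1 library of sgNT (-0.20 ± 0.10, edgeR adjusted p = 0.323).

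Complex V lay close to level, with a median size of change of 0.04 on the log2 scale, against 0.06 for complex IV, 0.11 for complex I and 0.13 for complexes II and III. Its 17 subunits had a median log2 fold change of 0.01, 10 above and 7 below 0, and the 95% intervals of all 17 lay within 1.5-fold. Of the 17, edgeR called 0 (1 at an unadjusted p under 0.05, against 19.2% of all genes). ATP5F1A and ATP5F1B form the catalytic head. ATP5F1B, the most abundant member, had 1019, 1027 and 1074 CPM in sgHDAC7 and 1062, 1032 and 1030 CPM in sgNT, and ATP5F1A had 793 ± 18.3 CPM against 791 ± 45.7 CPM (SD, n = 3). Their log2 fold changes were -0.00 (-0.0022) ± 0.06 and 0.01 ± 0.06, and that of ATP5F1C, the rotating gamma shaft, was -0.02 ± 0.06.

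ATP5MC1, ATP5MC2 and ATP5MC3 encode the same mature c subunit of the membrane ring. Summed, they gave 523 ± 33.5 CPM in sgHDAC7 and 524 ± 4.45 CPM in sgNT, with log2 fold changes of 0.09, -0.05 and 0.02. At the ends of complex V, ATP5MF and ATP5MG, membrane subunits, were at -0.08 and -0.07, and ATP5PD, of the peripheral stalk, was at 0.16 ± 0.07 (edgeR adjusted p = 0.25). ATP5F1E, the epsilon subunit, had 44.9, 45 and 43.1 CPM in sgHDAC7 and 33.3, 41.4 and 40.9 CPM in sgNT. The groups did not overlap, and sgNT replicate 1 was the low library (log2 fold change 0.20 ± 0.10, adjusted p = 0.316). ATP5F1E overlaps TUBB1 on the opposite strand, a megakaryocyte tubulin that rose 1.63-fold (edgeR adjusted p = 0.0306, and 0.0789 to 0.168 with any library but sgNT replicate 1 left out), and its part in the ATP5F1E value was not tested.

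ATP5IF1, the inhibitor that stops ATP synthase from running backwards and has a known role in haem synthesis, had 85.3, 92.8 and 115 CPM in sgHDAC7 and 93.8, 123 and 131 CPM in sgNT. Replicate 1 was lowest and replicate 3 highest in each group, and the groups overlapped. Its log2 fold change was -0.25 ± 0.14 (edgeR adjusted p = 0.371). Within replicate 1 the log2 ratio was -0.14, and within replicates 2 and 3 it was -0.30. In replicates 2 and 3 alone the adjusted p was 0.00596, and without sgNT replicate 1 it was 0.0428.

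Levels differed widely among subunits of the same complex, and those at the ends are named for their level. Per kilobase of coding sequence in sgNT, the medians over subunits with a mean of at least 5 CPM were 128 CPM per kb for complex I, 101 for complex II, 257 for complex III, 404 for complex IV and 259 for complex V. Coding length leaves out the untranslated part of the message, so short genes read high on this scale. The complex II genes lay closest together, from 88.1 ± 7.9 CPM per kb for SDHA to 107 ± 7.05 for SDHB (SD, n = 3). In complex I the range ran from 32.6 ± 1.85 for NDUFS4 to 724 ± 24 for NDUFS5, in complex III from 82.1 ± 4.28 for UQCRC2 to 986 ± 15.1 for UQCRH, in complex IV from 133 ± 2.28 for NDUFA4 to 833 ± 41.4 for COX8A, and in complex V from 65.1 ± 4.94 for ATP5F1D to 737 ± 27.4 for ATP5MJ. In sgHDAC7 the same genes were at 29.5 ± 1.65, 668 ± 55.1, 90.9 ± 4.58, 841 ± 102, 128 ± 14.7, 783 ± 65.3, 70.1 ± 8.73 and 717 ± 91 CPM per kb, in that order.

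One sgHDAC7 library stands apart from its group in these genes. sgHDAC7 replicate 3 was the highest of the 6 libraries for 34 of 78 subunits (43.6%), against 15.1% of all genes tested, and lay above sgHDAC7 replicate 2 for 63 of them. The summed subunits came to 8949, 8933 and 9725 CPM in sgHDAC7 and to 9313, 9351 and 9369 CPM in sgNT. The sgNT libraries are thus close together and the sgHDAC7 libraries lie on both sides of them. Over the subunits, the median log2 deviation from the mean of all 6 libraries was -0.06, -0.07 and 0.07 in sgHDAC7 and 0.01, 0.02 and 0.02 in sgNT. Over all genes tested the median deviation stayed within 0.01 in every library.

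The deviation was larger for subunits with short coding sequences. For the 50 subunits under 500 nt the median was -0.09 in sgHDAC7 replicate 2 and 0.08 in sgHDAC7 replicate 3, and for all 1017 tested genes under 500 nt it was -0.07 and 0.04. For the 10 subunits of 1000 nt or more it was 0.05 in both of these libraries, and for all 7834 genes of that length 0.02 and -0.00 (-0.0002). The part of message length in the subunit values was not tested. Leaving sgHDAC7 replicate 3 out moved the median log2 fold change of the 78 subunits from -0.02 to -0.09, with 21 above and 57 below 0, and that of all genes tested to -0.01; edgeR then called 0 subunits and 31 of all genes. By complex the medians were then -0.10, -0.11, -0.07, -0.11 and -0.04 for complexes I to V. Leaving sgHDAC7 replicate 2 out instead moved the subunit median to -0.01 (-0.0052). Without sgHDAC7 replicate 3 the median log2 fold change was -0.12 for the subunits under 500 nt and -0.05 for those of 500 to 1000 nt, against -0.07 and 0.01 for all genes of these lengths.

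**Figure D3:**
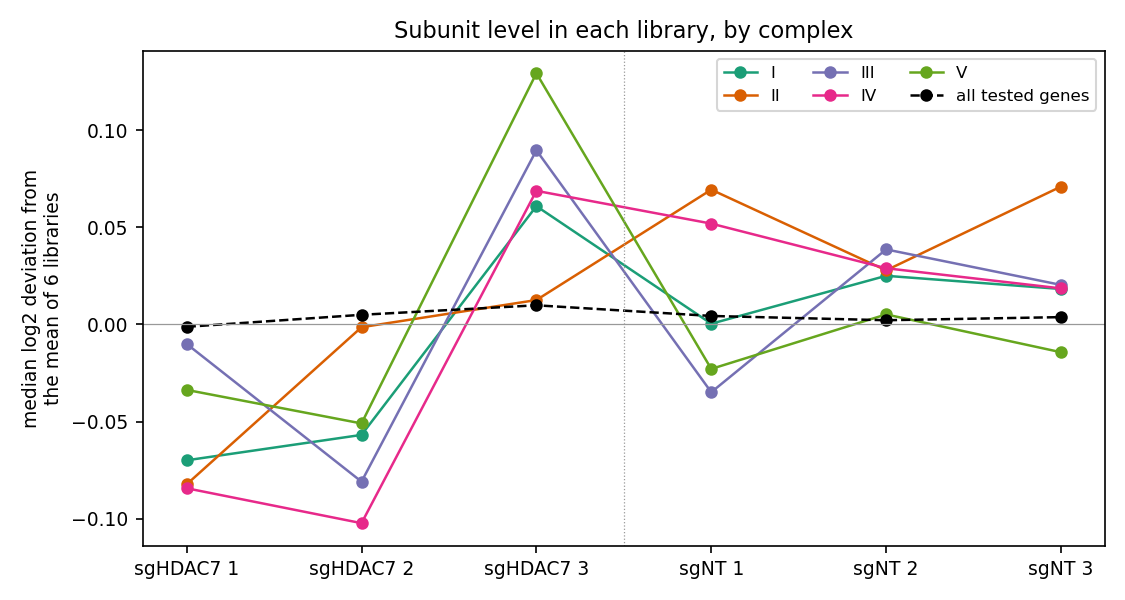
Median log2 deviation of the subunits of each complex from their mean over the 6 libraries, by library, with all tested genes as a dashed black line. sgHDAC7 replicate 3 is the highest library for complexes I, III, IV and V, at 0.13 for complex V, while sgHDAC7 replicates 1 and 2 lie below 0 for all 5 complexes.

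Several members share sequence with processed copies elsewhere in the genome, and the counts of parent and copy could not be told apart where they are identical. The copy COX6A1P2 (6:37044860-37045189) differs from the 327 coding bases of COX6A1 (12:120438090-120440742) at 4 positions, has an identical run of 207 bases, and took 92.6 CPM on average against 45.7 CPM for the parent, 67% of their sum. The opening 120 coding bases of COX6A1 and the aligned bases of the copy, both from GENCODE 29 on GRCh38, are shown because they hold every difference between them; capitals mark the differing bases.
COX6A1: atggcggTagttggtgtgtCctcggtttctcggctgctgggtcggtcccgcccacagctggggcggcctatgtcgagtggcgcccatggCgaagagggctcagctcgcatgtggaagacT
COX6A1P2: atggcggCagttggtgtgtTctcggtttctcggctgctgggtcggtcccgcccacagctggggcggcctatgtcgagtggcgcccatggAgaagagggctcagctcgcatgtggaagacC

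Identity is given over aligned bases, with gaps left out. NDUFV2P1 has 96.8% identity to NDUFV2 (23 mismatches, and 19 gap bases beside them) and took 50.4% of their sum. UQCRFS1P1 has 98.5% identity to UQCRFS1 (12 mismatches and 4 gap bases) and took 31.4%. UQCRHL, also at 98.5% (4 mismatches and 0 gap bases), took 18.3% of its sum with UQCRH. None of the copies was called by edgeR: of 12 tested, 0 passed, and 0 stood at an unadjusted p under 0.05. With each copy's counts added to its parent, an alternative chosen after seeing the data, the log2 fold changes were -0.11 for COX6A1 (edgeR adjusted p = 0.438), -0.02 for NDUFV2 (0.923), 0.03 for UQCRFS1 (0.838) and -0.22 for UQCRH (0.195). UQCRFS1 thereby changed sign, from -0.02, and the value of COX6A1 moved from -0.19.

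**Figure D4:**
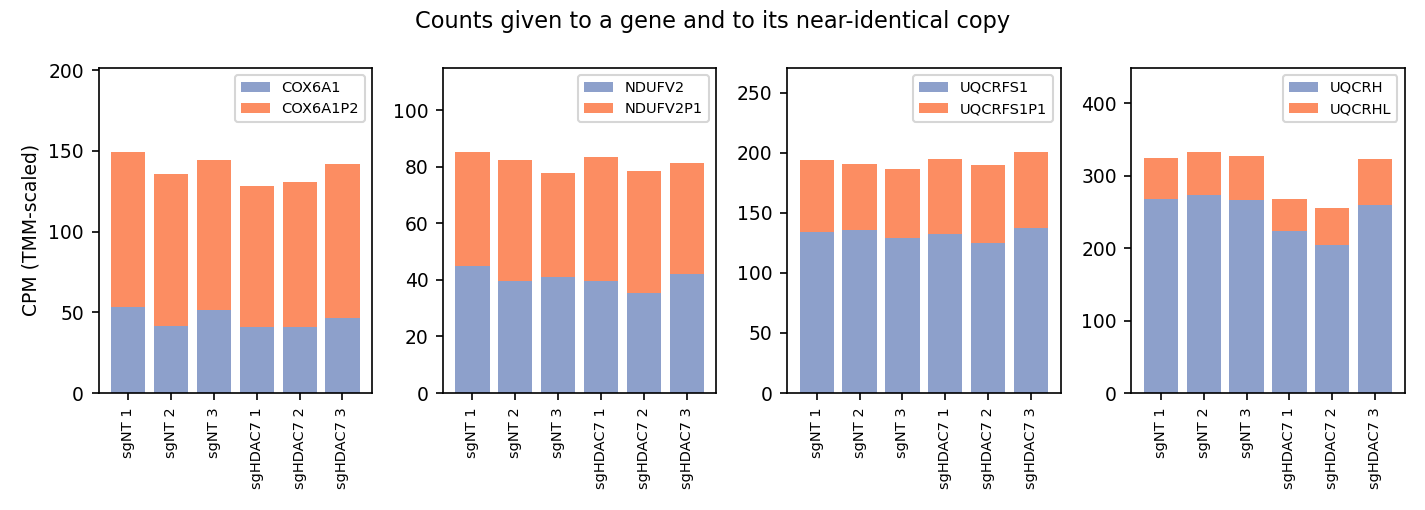
CPM given to COX6A1, NDUFV2, UQCRFS1 and UQCRH (blue) and stacked on them the CPM of their near-identical copies (orange), in each library. Averaged over the libraries the copy holds 67% of the sum for COX6A1, 50.4% for NDUFV2, 31.4% for UQCRFS1 and 18.3% for UQCRH.

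The rest of the pathway was read from lists. The 13 subunits encoded by mitochondrial DNA, which sit in the membrane parts of complexes I, III, IV and V, had a median log2 fold change of 0.15, with 11 above and 2 below 0, and 0 were called by edgeR (0 at an unadjusted p under 0.05, 0 with the replicate 1 term). In replicates 2 and 3 alone 4 of the 13 were called higher (30.8%, against 9.79% of all genes), namely ND1, ND4, CYTB and COX2, and 0 lower. Summed, they came to 38005, 34736 and 36875 CPM in sgHDAC7 and 39255, 36572 and 27031 CPM in sgNT. The groups overlapped, and sgNT replicate 3 was the low library, with a median log2 deviation of -0.40. Within replicate 1 their median was -0.01, and within replicates 2 and 3, which include that library, it was 0.21.

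**Figure D5:**
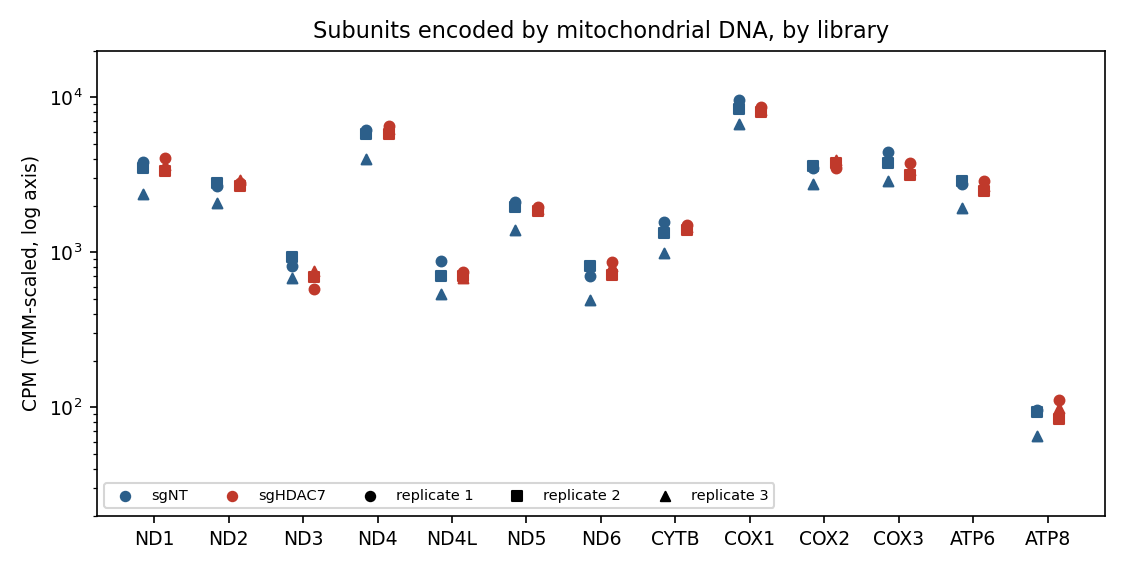
CPM of the 13 mitochondrially encoded subunits in each library on a log axis, sgNT in blue and sgHDAC7 in red, with marker shape for the replicate. The sgNT replicate 3 triangle lies below the other sgNT libraries for every gene, and the sgHDAC7 points overlap those of sgNT.

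The electron carrier gene CYCS, for cytochrome c, and CYC1, for cytochrome c1 of complex III, are outside the symbol rule and stood at -0.06 ± 0.09 and 0.03 ± 0.06. No assembly factor on the lists for complexes II (4 tested), III (8), IV (30) and V (3) was called by edgeR, with 1, 1, 4 and 0 of them at an unadjusted p under 0.05. Their medians were 0.10, 0.10, 0.01 and -0.06. With the replicate 1 term HIGD1A, a complex IV assembly factor, was called lower (adjusted p = 0.0144), the 1 call among these lists (3.33% of the complex IV list, against 6.81% of all genes). In replicates 2 and 3 alone HIGD1A was again lower (0.00273), and SURF1, COA4, COA7 and FASTKD2 of the complex IV list (13.3%) and SDHAF2 of the complex II list were called higher, against 9.79% of all genes. These genes were named after their values were seen.

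Among 18 citric acid cycle genes 1 was called (5.56%, against 2.86% of all genes), 7 stood at an unadjusted p under 0.05 (38.9% against 19.2%) and 10 had groups that did not overlap (55.6% against 25.1%), 5 of them higher and 5 lower. IDH2, the mitochondrial isocitrate dehydrogenase that makes NADPH, had 177, 165 and 167 CPM in sgHDAC7 and 93.4, 126 and 134 CPM in sgNT. It rose 1.44-fold without overlap, and sgNT replicate 1 was the lowest library (0.53 ± 0.12 on the log2 scale, adjusted p = 0.049 by edgeR). Within replicate 1 the log2 ratio was 0.92 and within replicates 2 and 3 it was 0.35, and leaving out any library but sgNT replicate 1 took the adjusted p over the threshold, to between 0.0888 and 0.19. It was also over the threshold with RLE scaling (0.0505), with library totals only (0.0523) and with copies summed (0.0525). The list's median was -0.04.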

How the data were processed

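Messenger RNA of 6 F36P libraries, 3 sgHDAC7 and 3 sgNT, was captured on poly-T beads and copied from random hexamers, per the labels' protocols. The authors deposited 1 table of read counts, 1 row a gene; 100% of the deposited values are whole, although the table's name says CPM. Columns named NC were taken as sgNT, the one group without HDAC7 in its name. The submitters' processing notes name hg38 and edgeR 3.32.1 without a role. Aligner, counter, annotation and strandedness: not given in the sources used here. Hence reads shared with a copy or an antisense gene could be split between genes.

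From these counts, edgeR 4.0.16 (R 4.3.3) fitted a quasi-likelihood model with TMM scaling and group as its term to the 13841 genes averaging 1 CPM or more. Tests are two-sided, adjusted by Benjamini-Hochberg over all genes, with a threshold of 0.05. CPM values are TMM-scaled, and per-replicate values run in the order of replicates 1, 2 and 3. Standard errors are those of the log2 fold change. Alternatives were DESeq2 1.42.0, limma 3.58.1 on log2(CPM + 0.5), other scaling, no filter or a mean CPM of at least 5, a block for the replicate number, a term for replicate 1, replicates 2 and 3 alone, each library left out, and copies summed with parents.

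Coordinates and coding lengths come from GENCODE 29 (GRCh38), which holds 110 of the 112 members, and start regions from RefSeq. Members, gene lists and the separate reading of replicate 1 were chosen with earlier results of these data known. Genes named are called members, the 2 highest and 2 lowest of each complex with a mean CPM of at least 5, core subunits, isoform families, the inhibitor, and up to 3 called genes a list. The scripts were tested on simulated counts. Some genes that meet this rule are not reported here.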

Additional observations from a re-analysis of the deposited data

How the results depend on the processing

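Beside the 396 genes and 1 member called by edgeR on group alone, DESeq2 called 718 and 2, the term for replicate 1 gave 1743 and 6, and replicates 2 and 3 alone gave 2861 and 9. With the replicate number as a block the counts were 998 and 2, the second member being NDUFA1. The replicate numbers were not taken as pairs: deviations of same-numbered libraries correlated at 0.275, 0.0777 and 0.0785, and not every library correlated best with its own number. Leaving out 1 library at a time gave 28 to 1595 genes and 0 to 4 members; the genes numbered 233 without sgHDAC7 replicate 1, 28 without sgHDAC7 replicate 2, 31 without sgHDAC7 replicate 3, 1595 without sgNT replicate 1, 46 without sgNT replicate 2 and 50 without sgNT replicate 3. Where an arm was left with 2 libraries, the fit shares its spread with the other group. The cause of these differences was not tested.

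The median log2 fold changes of complexes I to V (-0.05, -0.08, -0.01, -0.06 and 0.01) shifted with the libraries kept. Without sgHDAC7 replicate 3 they were -0.10, -0.11, -0.07, -0.11 and -0.04, and without sgHDAC7 replicate 2 that of complex III was 0.04. Over 44 named members, 683 of 703 gene and setting pairs kept their side of the threshold, 4 lost a call (all NDUFAF3), 16 gained one and 0 reversed a call. The sign of 15 uncalled members, none with a log2 fold change beyond 0.0795 in size, changed under at least 1 alternative. Every subunit lay above the 0.24 to 0.299 CPM that 3 counts make, the scarcest being COX6B2, from 1.13 CPM.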

Other observations

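Of 16 genes of cristae and inner membrane organisation, edgeR called 1 (6.25%, against 2.86% of all genes). It was OPA1, a dynamin-like GTPase that fuses inner membranes and shapes cristae. It had 238, 247 and 245 CPM in sgHDAC7 and 293, 299.8 and 283 CPM in sgNT, and the groups did not overlap. It fell, with a log2 fold change of -0.26 ± 0.06 (SE, adjusted p = 0.0493), at -0.30 in replicate 1 and -0.24 in replicates 2 and 3. Leaving out any library but sgNT replicate 1 took its adjusted p over the threshold, to between 0.104 and 0.188, and with no filter it was 0.0557. The median of the list was -0.03.

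No gene was called by edgeR among 20 regulators of respiratory genes (median log2 fold change 0.09, 3 at an unadjusted p under 0.05), 31 genes of mitochondrial import and carriers (0.06, 5) and 13 of ubiquinone synthesis (0.03, 1). The shares at that unadjusted p were 15%, 16.1% and 7.69%, against 19.2% of all genes. With the replicate 1 term 2 regulators (10%) and 4 import genes (12.9%) were called higher, against 5.78% of all genes, and 0 of either were lower. These were PPRC1, a coactivator related to PGC-1, and MTERF2, of the mitochondrial transcription termination factor family, and the import genes TOMM34, TOMM40, TIMM50 and the phosphate carrier SLC25A3, all named after their values were seen. SLC25A3 had 351, 354 and 359 CPM in sgHDAC7 and 306, 308 and 305 CPM in sgNT, without overlap (0.21 ± 0.06, adjusted p = 0.0784 on group alone and 0.0174 with the term). In ubiquinone synthesis COQ8A was called lower with the term (7.69%, against 6.81% of all genes). In replicates 2 and 3 alone 5 regulators (25%) and 6 import genes (19.4%) were called higher, against 9.79% of all genes. The 5 were PPRC1, NRF1, TWNK, MTERF2 and MTERF3. Called lower there were 0 regulators, 1 import gene (3.23%) and COQ8A (7.69%), against 10.9% of all genes. Of the 20 regulators 13 lay above 0 and 7 below. The lowest regulator, TFAM, which packages mitochondrial DNA and helps start its transcription, is named here after its values were seen. TFAM had 109, 109.8 and 117 CPM in sgHDAC7 and 130.4, 129 and 120.1 CPM in sgNT. These groups did not overlap, at -0.18 ± 0.07 on the log2 scale (edgeR adjusted p = 0.184).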
